A study of Mus musculus with 6 samples.

Results

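The gene described here is mt-Tl1, the mitochondrial tRNA that carries leucine to UUA and UUG codons, 1 of the 37 genes and 1 of the 22 tRNA genes of the mouse mitochondrial chromosome. It spans chrM 2676 to 2750 (GRCm38, forward strand, 75 nt, ENSMUSG00000064340.1), directly between mt-Rnr2 (1094 to 2675), the large ribosomal RNA, and mt-Nd1 (2751 to 3707), which encodes a subunit of complex I. It was chosen from measured values: its depth near position 9 and its mismatch at base 68, counted from 1 at the 5′ end, both over all libraries together. Those levels are therefore given as descriptions, and only the difference between genotypes was tested.

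Small RNA libraries were made from islets of the pancreas after 14 weeks on a high-fat diet, 3 from Mrpp3WT mice and 3 from Mrpp3N434S mice; values given in threes below follow replicates 1 to 3. The design text speaks of pancreatic RNA and the sample labels of islet cells; neither gives strain, age or zygosity. All 6 libraries share the diet, so no group on another diet enters the comparison. The protein MRPP3 cuts RNA as a part of mitochondrial RNase P, and N434S is the allele the labels name.

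Mitochondrial genes are copied as long transcripts in which tRNAs lie between rRNAs and mRNAs. RNase P cuts at the 5′ end of a tRNA and the nuclease ELAC2 at its 3′ end, so cutting out mt-Tl1 also sets the 3′ end of mt-Rnr2 and the 5′ end of mt-Nd1. The MRPP1 subunit of the same complex methylates a purine at position 9, where reverse transcriptase can stop or misread.

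The gene is shown first with position 9 and base 68 in capitals, the bases about which the depth and mismatch data turn. The second line marks in capitals bases 30 to 67, which held most of the depth. The third shows the junction with mt-Rnr2 (chrM:2666-2685), with the first 7 bases of mt-Tl1 in capitals, and the fourth the junction with mt-Nd1 (chrM:2739-2760), with the last 8 bases of mt-Tl1 in capitals. All are forward strand, 5′ to 3′, written as DNA from the reference column of the deposited files, which matched the GENCODE transcript over the gene.
mt-Tl1, position 9 and base 68: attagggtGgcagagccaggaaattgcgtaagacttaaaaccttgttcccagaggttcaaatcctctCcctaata
mt-Tl1, bases 30 to 67: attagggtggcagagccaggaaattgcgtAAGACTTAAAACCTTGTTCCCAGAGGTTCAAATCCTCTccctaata
mt-Rnr2 to mt-Tl1: agagaaggttATTAGGGtgg
mt-Tl1 to mt-Nd1: ctctCCCTAATAgtgttcttta

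Bases 1 to 7 and 68 to 74 form the acceptor stem of the tRNA, and all 7 pairs were Watson-Crick by sequence. Base 68 is the first base of its 3′ strand and stands opposite G at base 7. The letters TAA occur on this strand at bases 29 to 31, 36 to 38 and 71 to 73, and the anticodon is the match at 36 to 38. The step in depth at base 30 lay a few bases before the anticodon.

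The summed base depth of the mitochondrial chromosome was 3156761 to 4337052 in Mrpp3WT and 5461367 to 10923311 in Mrpp3N434S, so all Mrpp3N434S libraries were deeper. The highest depth within mt-Tl1, both strands together, was 253 to 794, far below the highest depth on the chromosome, 7436 to 8000. The latter stayed at or below 8000 although the summed depth differed widely, and whether the counting capped it was not tested. Positions above 6000 numbered 408 in Mrpp3N434S replicate 1 and 90 or 98 in the other libraries. A cap would lower the deepest positions, and with them any total or scaling that includes them. The counts cover this chromosome alone, so neither the islet origin nor the Mrpp3 genotype was checked against nuclear genes. Nothing in the labels beyond the design's 3 mice per genotype ties a library to an animal, and the p-values measure the spread between these libraries.

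Depth along mt-Tl1 fell into 3 stretches: a short one continuous with mt-Rnr2, a gap over bases 8 to 28, and a plateau over bases 30 to 67. The plateau held 86.3% of the base depth of the gene on average (84.1% to 88.4% over the 6 libraries), bases 1 to 7 held 6.01%, bases 8 to 29 held 2.00% and bases 68 to 75 held 5.72%. The peak depth over bases 20 to 60 was 339, 253 and 256 in Mrpp3WT libraries, and 442, 277 and 794 in Mrpp3N434S libraries. Mrpp3N434S replicate 3 stood far above the rest, Mrpp3N434S replicate 1 lay above all 3 Mrpp3WT libraries, and replicate 2 lay within their range. The first base at the peak was between 41 and 49 in every library.

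**Figure D1:**
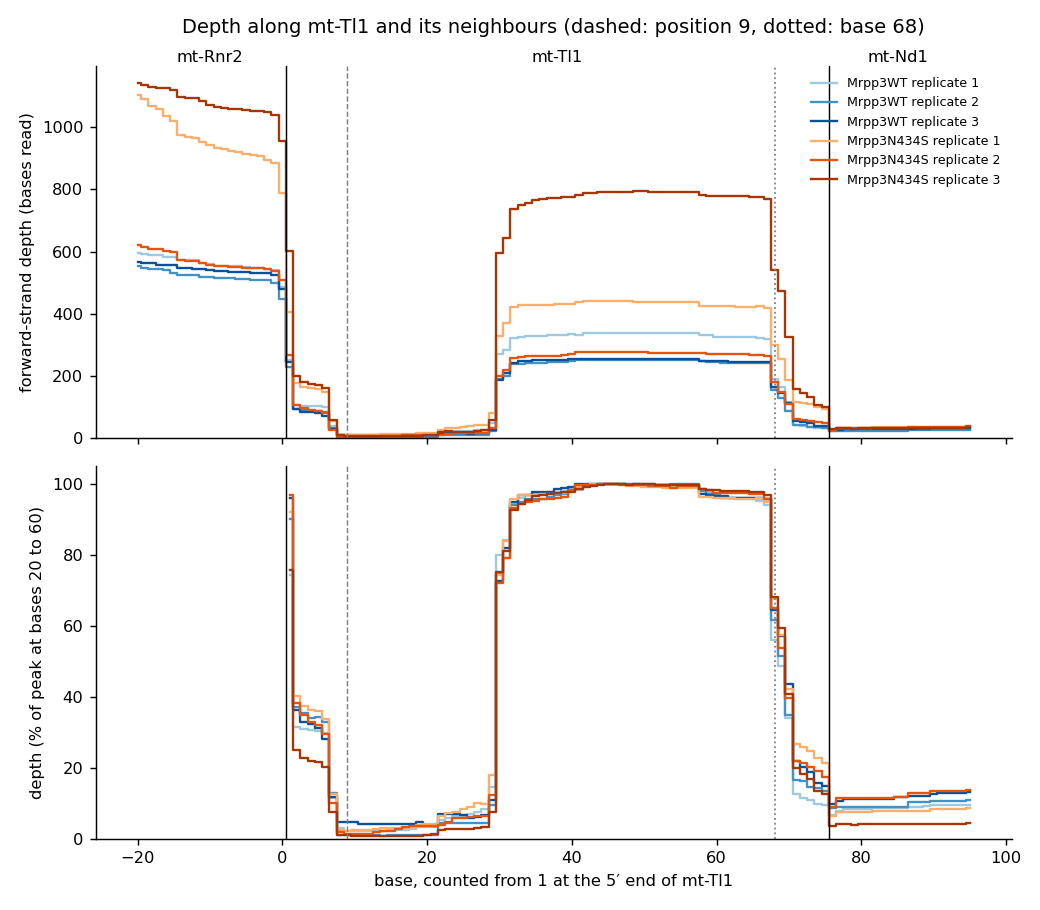
Upper panel: forward-strand depth (bases read) from 20 bases before to 20 bases after mt-Tl1 in each of 6 libraries; lower panel: the same within and after the gene as a percentage of each library's peak depth. Vertical lines mark the gene ends, position 9 and base 68. The 6 profiles have one shape: a short stretch that falls away from mt-Rnr2, a gap around position 9, a plateau from base 30 to 67 and a fall in steps after it.

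The largest step in depth within the gene lay between bases 30 and 29, well downstream of position 9. Read from the 3′ side, depth went from 271 at base 30 to 49 at base 29 in Mrpp3WT replicate 1, from 189 to 24 in replicate 2 and from 186 to 28 in replicate 3. In Mrpp3N434S libraries it went from 329 to 80, from 200 to 34 and from 597 to 59. This single step made up 62.7% of the peak on average (56.3% to 67.8%), and its size did not separate the genotypes. By base 32 depth had reached 92.7% to 95.7% of the peak in all 6 libraries. A change in depth between neighbouring bases is the number of reads that begin there minus the number that end, so most reads of the plateau began at bases 30 to 32.

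At position 9 (chrM 2684, reference G) depth was 7, 3 and 12 in Mrpp3WT libraries and 10, 4 and 8 in Mrpp3N434S libraries. As a share of the peak this was 2.06%, 1.19% and 4.69% in Mrpp3WT and 2.26%, 1.44% and 1.01% in Mrpp3N434S. The groups overlapped, and the highest share came from the 12 reads of Mrpp3WT replicate 3. The edgeR quasi-likelihood test gave a log2 difference of -0.83 between Mrpp3N434S and Mrpp3WT (SE 0.58, 95% interval -2.30 to 0.63, adjusted p = 0.35). Without Mrpp3WT replicate 3 the difference was -0.23. With so few reads only a large difference would have been detectable. Of the 13 tRNAs with a peak of at least 50 in every library, edgeR called 0 (0%), with 5 at an unadjusted p under 0.05; limma called 0 (4 unadjusted) and DESeq2 called 1, which was not mt-Tl1 (5 unadjusted).

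Among those 13 tRNAs, mt-Tl1 had the lowest share at base 9, 2.11% on average. The next was the glycine tRNA mt-Tg at 5.75% (4.25% to 8.21%), and the ranges of these 2 tRNAs over the libraries overlapped slightly. Depth was as low on both sides of the position as at it. It was 10, 3, 12, 11, 5 and 9 at base 8 and 7, 3, 12, 11, 4 and 7 at base 10, in the Mrpp3WT libraries and then the Mrpp3N434S libraries. From base 8 to base 28 it never exceeded 44 in any library.

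The profiles most like that of mt-Tl1 were sought, by the mean absolute difference of depth as a share of the gene maximum over 20 equal bins, among the 14 tRNAs whose maximum reached 50 in all libraries. The closest 3 were mt-Te (glutamate, difference 0.191), mt-Tg (glycine, 0.205) and mt-Tc (cysteine, 0.26). In mt-Tg depth rose most at base 27 in all 6 libraries, from 526 to 739 in Mrpp3WT replicate 1 and from 683 to 1156 in Mrpp3N434S replicate 1, and stood at 42 and 59 at base 9 in those libraries. In mt-Te the share at base 9 was 34.7% of its peak on average and in mt-Tc 39.6%. The measure is a description over 6 libraries, with no test.

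**Figure D2:**
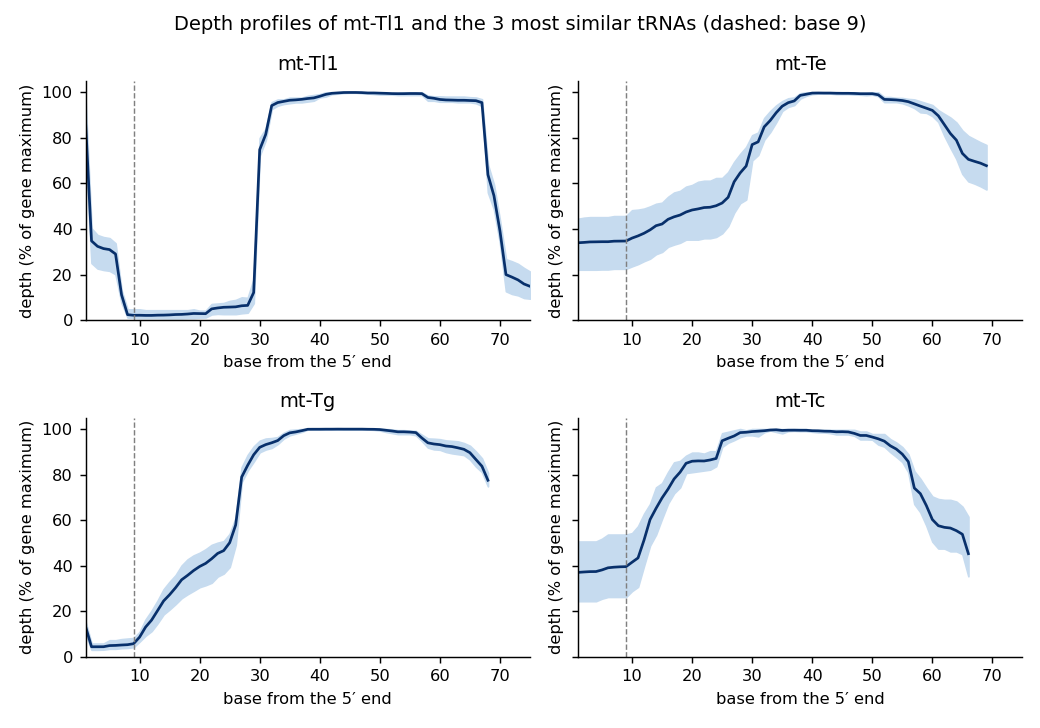
Depth along mt-Tl1 and the 3 tRNAs with the most similar profiles, as a percentage of the gene maximum against the base from the 5′ end. Lines are means over 6 libraries and bands the lowest to highest library. The profile of mt-Tl1 rises in a step at base 30. That of mt-Tg also rises most at one base, 27, by a smaller share of its maximum, while mt-Te and mt-Tc rise over a longer stretch.

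The first bases of mt-Tl1 carried depth that ran on from mt-Rnr2. At chrM 2674, 2 bases before the gene, depth was 541, 500 and 526 in Mrpp3WT libraries and 884, 538 and 1038 in Mrpp3N434S libraries. At base 1 it was 252, 228 and 246 in Mrpp3WT and 407, 268 and 601 in Mrpp3N434S. At base 2 it was 107, 94 and 93 in Mrpp3WT and 178, 106 and 199 in Mrpp3N434S. Relative to 2674, depth was 91.1% at the last base of mt-Rnr2 (2675), 48.8% at base 1 of mt-Tl1 and 19.2% at base 2, as means over 6 libraries. Reads from the rRNA side thus ended mainly at 2675 and at base 1, around the annotated boundary rather than at a single base.

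A smaller part went on to base 6. There depth was 16.1% of that at 2674 (13.7% to 18.7%). It then fell to 39, 33 and 30 at base 7 in Mrpp3WT and 56, 28 and 60 in Mrpp3N434S, and to at most 12 at base 8. Base 7 is the last base of the 5′ strand of the acceptor stem. As a share of 2674, base 2 held 18.8% ± 1.05 in Mrpp3WT and 19.7% ± 0.483 in Mrpp3N434S (SD, n = 3), which overlapped. Base 1 held 46.3% ± 0.627 and 51.3% ± 6.06, also overlapping, with the highest value of 57.9% in Mrpp3N434S replicate 3.

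The last 10 bases of mt-Rnr2 held 2.85, 3.53 and 3.57 times the mean depth of mt-Tl1 in Mrpp3WT libraries and 3.49, 3.43 and 2.36 times in Mrpp3N434S libraries. The groups overlapped, and the lowest ratio belonged to Mrpp3N434S replicate 3. The log2 difference in this ratio was -0.12 (SE 0.24, 95% interval -0.66 to 0.42, edgeR adjusted p = 0.999), and without Mrpp3N434S replicate 3 it was 0.073. Of 11 tRNAs with a mean leader depth of at least 10, edgeR called 0 (0%), with 0 at an unadjusted p under 0.05, and limma and DESeq2 likewise called 0, with 0 unadjusted. This window measures mature and uncut rRNA together, since reads that cross the junction were not counted as such.

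At the other end, depth fell in steps over the 3′ strand of the acceptor stem. At base 67 it still stood at 94.1% to 97.0% of the peak. It was 63.8% at base 68, 54.6% at base 69, 39.2% at base 70 and 14.8% at base 75, as means over 6 libraries. Most reads of the plateau thus ended before the annotated 3′ end, most often after base 67 and over bases 69 and 70. At base 68 the share of the peak was 56.0%, 61.7% and 64.5% in Mrpp3WT libraries and 67.6%, 65.0% and 68.3% in Mrpp3N434S libraries. Each Mrpp3N434S library lay above each Mrpp3WT one there, with 65.0% and 64.5% the closest. This contrast was noticed in the data among many profile measures and was not tested.

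Past the gene, depth dropped further to the level of mt-Nd1. At base 75 it was 32, 34 and 38 in Mrpp3WT libraries and 94, 48 and 101 in Mrpp3N434S libraries. At chrM 2751, the first base of mt-Nd1, it was 23, 22 and 25 in Mrpp3WT and 28, 25 and 29 in Mrpp3N434S. The ratio of base 75 to 2751 was 1.39, 1.55 and 1.52 in Mrpp3WT and 3.36, 1.92 and 3.48 in Mrpp3N434S, with no overlap. By this ratio, depth dropped more steeply at the annotated 3′ end in all 3 Mrpp3N434S libraries. This ratio was picked from many profile measures after its values were seen and was not tested. Most of those measures overlapped between the genotypes. Some others did not, such as base 7 as a share of base 6 (38.6% to 41.7% in Mrpp3WT, 34.1% to 37.6% in Mrpp3N434S). Even full separation of 3 against 3 libraries gives an exact permutation p no smaller than 0.1. The ratio was not compared with that of other tRNAs. Base 75 as a share of the peak overlapped, at 9.44% to 14.8% in Mrpp3WT and 12.7% to 21.3% in Mrpp3N434S.

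Over the tested window the groups overlapped. The first 10 bases of mt-Nd1 held 0.146, 0.16 and 0.193 of the mean depth of mt-Tl1 in Mrpp3WT libraries and 0.129, 0.198 and 0.0714 in Mrpp3N434S libraries. Mrpp3N434S replicate 3 was the lowest. The log2 difference was -0.45 (SE 0.40, 95% interval -1.27 to 0.36, edgeR adjusted p = 0.65), and -0.070 without Mrpp3N434S replicate 3. Of 20 testable trailers edgeR called 2 (10%), neither of them that of mt-Tl1. Mean depth in the window itself was 27.8, 22.9 and 28.5 in Mrpp3WT and 33.3, 31.4 and 31.6 in Mrpp3N434S.

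Over the whole gene, no difference in mt-Tl1 depth relative to other mitochondrial RNA passed the test. After TMM scaling its mean depth was 186, 201 and 225 in Mrpp3WT libraries and 161, 182 and 390 in Mrpp3N434S libraries. Mrpp3N434S replicate 3 was the highest and the other 2 Mrpp3N434S libraries were the lowest of the 6. The log2 difference was 0.26 (SE 0.29, 95% interval -0.37 to 0.89, edgeR adjusted p = 0.522), and without Mrpp3N434S replicate 3 it turned to -0.25 (adjusted p = 0.316). It was also negative, at -0.30, when scaled to the summed rRNA genes. Of the 34 genes with a mean depth of at least 10, edgeR called 2 (5.88%), and mt-Tl1 was not among them. In islet RNA, fewer cells of a type and less RNA per cell cannot be told apart.

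Opposite the gene, on the reverse strand, depth never exceeded 2 in any library and was 0 throughout in 4 of them. It reached 2 in Mrpp3WT replicate 1 and Mrpp3N434S replicate 1. A count of 0 allows up to 3 counts, and depths this low were not analysed further.

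Base 68 (reference C) was the most often mismatched base of mt-Tl1 among the 47 that reached a depth of 50 in all libraries. Its mean mismatch over the 6 libraries was 25.9%, the fourth highest of the 3308 tRNA and rRNA positions at that depth. Of the 6 such positions with a mean of at least 5%, the other 5 lay at base 8 or 9 of mt-Tn, mt-Th, mt-Tv, mt-Ta and mt-Te. These ranks are part of what singled out mt-Tl1.

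In Mrpp3WT libraries, 69 of 190, 39 of 156 and 47 of 165 bases read at base 68 were mismatched. In Mrpp3N434S libraries the counts were 53 of 299, 43 of 180 and 131 of 542. The mismatched shares were 36.3%, 25.0% and 28.5% in Mrpp3WT and 17.7%, 23.9% and 24.2% in Mrpp3N434S. The exact (Clopper-Pearson) 95% intervals of the libraries ran from 18.4% to 43.6% across Mrpp3WT and from 13.6% to 30.8% across Mrpp3N434S. They cover counting error only, not the spread between libraries. Where copies of one molecule were read more than once, they are too narrow. Each Mrpp3N434S library lay below each Mrpp3WT library, but Mrpp3N434S replicate 3 and Mrpp3WT replicate 2 were less than 1 percentage point apart. Mrpp3WT replicate 1 was the highest and Mrpp3N434S replicate 1 the lowest.

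**Figure D3:**
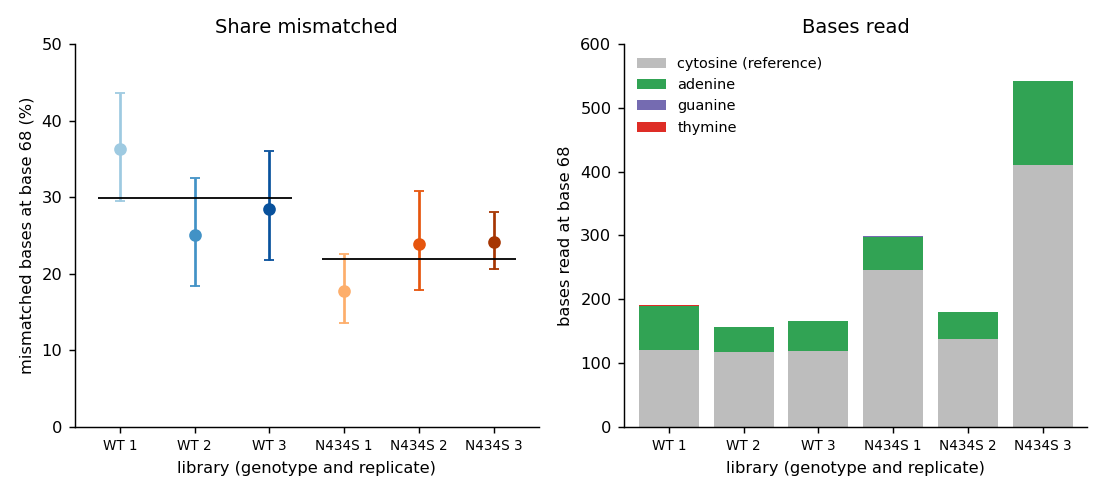
Left: mismatched share (%) at base 68 in each library with exact 95% binomial intervals, and group means as horizontal lines. Right: the number of bases read there by kind; nearly all mismatched bases were adenine, and the Mrpp3N434S shares of 17.7% to 24.2% sit below the Mrpp3WT shares of 25.0% to 36.3%.

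The group means were 29.9% ± 5.80 in Mrpp3WT and 21.9% ± 3.64 in Mrpp3N434S (SD, n = 3), and Mrpp3N434S minus Mrpp3WT was -8.01 points. The exact permutation test (two-sided) returned 0.1 as p, the smallest that 3 against 3 libraries allow. The edgeR quasi-likelihood test gave a log2 odds difference of -0.62 (SE 0.27, 95% interval -1.18 to -0.046), with an unadjusted p of 0.0357 and an adjusted p of 0.109, so the difference did not pass. Of the 6 positions tested edgeR called 0 (0%), with 2 at an unadjusted p under 0.05; limma also called 0 (2 unadjusted) and DESeq2 0 (1 unadjusted). Over the other models and filters the adjusted p at base 68 was 0.137 (limma) to 0.478 (edgeR with no minimum depth). This leaves out the filter to tRNA positions, which kept the same 6 positions and repeated the main fit. Without Mrpp3N434S replicate 3, the deepest library at this base, it passed (log2 odds -0.79, edgeR adjusted p = 0.0208), whereas without Mrpp3WT replicate 1 the difference was -0.39 (adjusted p = 0.579).

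In raw counts, not scaled for the greater summed depth of the Mrpp3N434S libraries, all 3 of these also held more reference bases there. Mismatched bases overlapped between the groups, at 39 to 69 and 43 to 131, while reference bases numbered 117 to 121 in Mrpp3WT and 137 to 411 in Mrpp3N434S. Relative to the depth at base 67, mismatched bases made up 21.6%, 16.1% and 19.2% in Mrpp3WT libraries and 12.6%, 16.2% and 17.0% in Mrpp3N434S libraries, and on that measure the groups overlapped.

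The substituted base was A almost without exception. Over all 6 libraries C68A accounted for 380 of 382 mismatched bases (99.5%), with 1 C68G in Mrpp3N434S replicate 1 and 1 C68T in Mrpp3WT replicate 1. Positions are counted from 1 at the 5′ end of the gene, and the first letter is the reference. The share of A among mismatched bases was 99.5% ± 0.837 in Mrpp3WT and 99.4% ± 1.09 in Mrpp3N434S (SD, n = 3). For each of the 3 substituted bases the exact permutation test gave p = 1, also adjusted over the 3.

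The number of mismatched bases was set beside the number of reads that ended there. Between base 68 and base 69 depth fell by 25, 26 and 19 in Mrpp3WT libraries and by 45, 31 and 70 in Mrpp3N434S libraries. The mismatched bases outnumbered that fall by 44, 13 and 28 in Mrpp3WT and by 8, 12 and 61 in Mrpp3N434S. If no read began at base 69, at least that many mismatched reads went on past base 68. Whether the aligner trimmed mismatched read ends was not tested, and such trimming would lower both the depth and the mismatch at these bases.

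A was also the most frequent substituted base at neighbouring bases of the 3′ end. Over bases 67 to 75, at the 6 positions whose reference is not A, 437 of 449 mismatched bases were A (97.3%), whereas over the 25 such positions of bases 30 to 66 it was 31 of 112 (27.7%). Base 68 gave most of the first count. Without it, the substitutions were T67A in 13 of 16 mismatched bases, C69A in 10 of 12, 1 of 1 at base 70 and T71A in 33 of 38, and base 74 had no mismatch in 371 bases read, which allows a share of up to 0.809%. These counts pool the libraries and are a description.

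**Figure D4:**
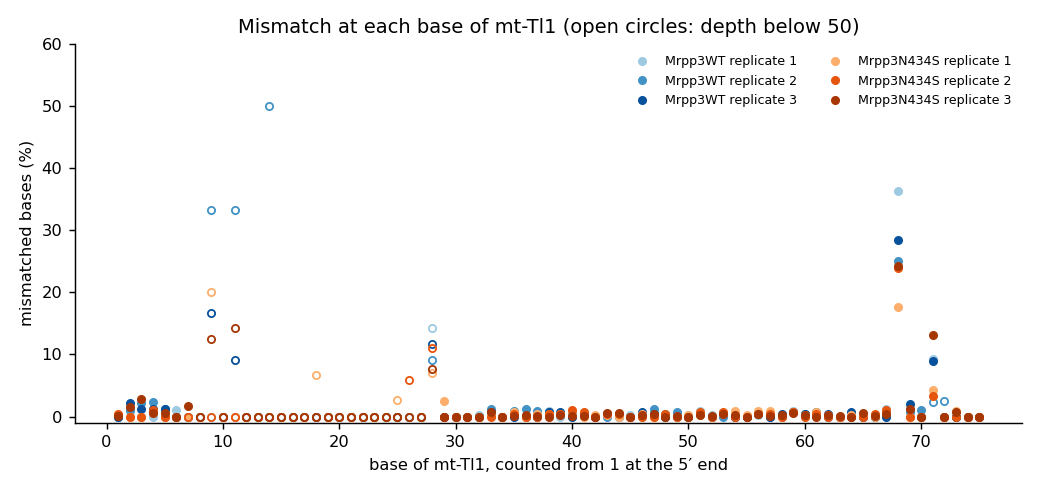
Mismatched share (%) at each base of mt-Tl1 in each of 6 libraries, with filled circles where the depth was at least 50 and open circles where it was lower. Base 68 stands apart at 17.7% to 36.3%, base 71 reaches 13.2%, and the scattered open circles over bases 8 to 28 rest on a few reads each.

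Base 71 (chrM 2746, reference T) was the next most mismatched base of the 3′ end. Depth there was 42 to 56 in Mrpp3WT and 61 to 159 in Mrpp3N434S, so it missed the depth minimum in 2 libraries and is named after its values were seen. The mismatched share was 9.30%, 2.38% and 8.93% in Mrpp3WT libraries and 4.24%, 3.28% and 13.2% in Mrpp3N434S libraries. The groups overlapped, with Mrpp3N434S replicate 3 highest and Mrpp3WT replicate 2 lowest. With the minimum depth lowered to 20, the log2 odds difference was 0.13 (SE 0.56, edgeR adjusted p = 0.9); it was -0.91 without Mrpp3N434S replicate 3, and also negative by limma and by DESeq2.

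Base 28 (chrM 2703, reference G), likewise named after its values were seen, lay just before the rise at base 30 and was mismatched in every library. The counts were 4 of 28, 1 of 11 and 2 of 17 in Mrpp3WT libraries and 3 of 43, 2 of 18 and 2 of 26 in Mrpp3N434S libraries. Over all libraries 13 of the 14 mismatches were G28T. The group means were 11.7% ± 2.60 and 8.59% ± 2.21 (SD, n = 3), which overlapped (exact permutation p = 0.2).

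At position 9, mismatches were 0 of 7, 1 of 3 and 2 of 12 in Mrpp3WT libraries and 2 of 10, 0 of 4 and 1 of 8 in Mrpp3N434S libraries. Pooled, 6 of 44 bases differed from G, 3 of 22 in each genotype, and 4 of the 6 were G9A. The exact 95% intervals of single libraries spanned from 0% to 90.6%, so no difference in position 9 mismatch was detectable at this depth (exact permutation p = 0.7). Base 3 (chrM 2678, reference T) was the only other base with a mean mismatch of at least 1% where depth reached 50 in all libraries. It had 1.03% on average, from 0% in 3 libraries to 2.78% in Mrpp3N434S replicate 3, and the difference did not pass (log2 odds -0.016, SE 0.43, edgeR adjusted p = 0.989; -0.77 by limma and -0.19 by DESeq2). The other 45 bases at that depth had means below 1%. Single libraries went higher at some of them, up to 2.33% at base 4 in Mrpp3WT replicate 2, so base 3 did not stand apart. The median over the 46 bases other than base 68 was 0.247%, against 0.256% over all 3308 positions.

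At the base that stands opposite base 7, no other tRNA with enough depth had a comparable mismatch. In the 11 of 22 tRNAs that reached a depth of 50 there in all libraries, mt-Tl1 had 25.9% and the other 10 had 0% to 0.358%. The position was taken as the eighth base from the 3′ end of each gene.

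**Figure D5:**
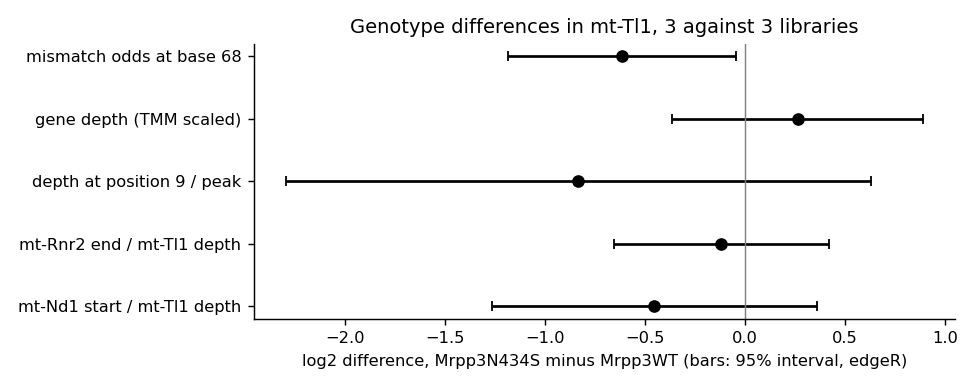
Log2 difference between Mrpp3N434S and Mrpp3WT with 95% intervals for the 5 tested measures of mt-Tl1, from edgeR fits over 3 against 3 libraries. The interval of the mismatch odds at base 68 lies below 0 before adjustment, from -1.18 to -0.046, and the other 4 intervals include 0.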

How the data were processed

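The authors deposited, for each library, raw counts of each base (A, C, G, T or N) by strand and by mitochondrial position, per the file headers. Libraries followed the Illumina TruSeq small RNA protocol per the labels' protocols. Trim Galore, cutadapt, FastQC, STAR and GRCm38.p6 are named in the submitters' processing notes. The base counter, its filters and end trimming have no mention in the sources used here. A table of position 9 counts with 16 columns of per-sample values was not used, because its 6 block headings match no label.

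Depth was A, C, G and T on the gene's strand, with GENCODE M21 genes. edgeR 4.0.16 (R 4.3.3) quasi-likelihood fits ran over all positions, genes or tRNAs that passed the filters named in the text, with Benjamini-Hochberg adjustment and a threshold of 0.05. Ratio fits had an effect per library. Mean depths were rounded. Each standard error was derived from the F statistic. Alternatives used limma 3.58.1 and DESeq2 1.42.0. Models were tested on simulated data. All 6 libraries were counted separately because the series' design names 3 mice per genotype. The closest pair within a group differed by a chi-square per degree of freedom of 3.24 over genes. Because each read adds depth at many bases, this value cannot be set against counting noise. It does not show separate animals.

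Named were mt-Tl1, its neighbours, the 3 tRNAs of most similar profile and every base with at least 1% mean mismatch at a depth of 50. The gene, its bases and these rules were chosen with earlier results of these data known.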

Additional observations from a re-analysis of the deposited data

How the results depend on the processing

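No tested difference in mt-Tl1 passed under the other models, scalings, filters or windows tried, and of the single libraries left out only Mrpp3N434S replicate 3 changed a call, at base 68. Leaving out a library moved the log2 odds at base 68 from -0.79 to -0.39, gene depth from -0.25 to 0.53, position 9 depth against the peak from -1.21 to -0.23, the leader from -0.23 to 0.073, the trailer from -0.78 to -0.070, base 3 from -0.65 to 0.64 and base 71 from -0.91 to 0.50. Without Mrpp3WT replicate 2, and likewise without Mrpp3N434S replicate 3, base 3 fell under the filter and gave no value. The position 9 mismatch difference of -5.83 points ranged from -14.2 to 2.50, and those in the shares of A, G and T at base 68 from -0.629 to 0.483, from 0 to 0.943 and from -0.725 to 0 points. As a share of all bases read, A differed by -7.94 points, since that denominator includes the reference. Base 3 gave -0.77 by limma and -0.19 by DESeq2, and base 71 gave -0.16 and -0.036; the cause was not tested. Depth scaled to rRNA was -0.30, on a scale that moved the median of all genes from -0.034 to -0.69; the other settings gave 0.15 to 0.67. With mt-Tl1 counted over bases 8 to 75 it was 0.27, and with positions above 6000 left out 0.26, both added after the data were seen.

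Counts of calls moved more. Of the genes, edgeR called 1 higher and 1 lower in Mrpp3N434S with TMM, 4 and 1 with library totals, 0 and 16 with rRNA and 12 and 1 with tRNA scaling, and 4 in all with no filter on low depth. Without single libraries the count ran from 0 to 13. For position 9 depth it was 0, against 1 by DESeq2 and 5 with the mean of bases 20 to 60, and 0 to 5 without single libraries. For trailers it was 2, against 1 by limma and 0 by DESeq2, and 0 to 1 without single libraries. Without Mrpp3N434S replicate 3 the mismatch fit called 1 position, base 68.

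No pairing by replicate number was seen: same-numbered libraries had correlated deviations of -0.031, -0.25 and 0.23, and not every library correlated best with its own number. With 3 libraries per genotype, such correlations cannot exclude pairing. With the replicate number as a block, base 68 gave -0.60 (limma, adjusted p = 0.236), gene depth 0.15, position 9 depth -0.62, the leader -0.11, the trailer -0.44, base 3 -0.77 and base 71 -0.16. The block was fitted with edgeR for genes, where it moved the calls from 2 to 4, and with limma for the other measures, whose log2 values equal limma's without it. Against limma without the block, it moved the trailers called from 1 to 0 and left the other counts at 0. Depth limits position 9, with 3 to 12 reads per library.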
